A study of Rattus norvegicus with 12 samples.

Results

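Levels of 10 genes that build the junctions of the intercalated disc (Gja1, Gja5, Gjc1, Dsp, Pkp2, Jup, Dsg2, Dsc2, Cdh2 and Ctnna3) were followed in ventricular myocytes isolated from newborn Sprague-Dawley rats and kept in culture (NRVMs). The genes were taken by name, for the place of their proteins in the disc, with earlier results of these data known. All 10 were found among the 18469 genes of the deposited tables. RNA sequencing covered 12 libraries in 4 groups of 3 biological replicates. All cells had received a small interfering RNA. The groups siNeg and siSlc25a26 carried the negative control siRNA or an siRNA against Slc25a26, a mitochondrial carrier of S-adenosylmethionine, without further treatment. The groups siNeg.PE and siSlc25a26.PE carried the same siRNAs and were exposed to phenylephrine (PE), an adrenergic agonist that makes these cells grow, for 36 h from 12 h after transfection. The samples were mixed RNA of whole cultures, so fewer cells of a type and less RNA per cell cannot be told apart, and siRNA knockdown is transient and depends on how many cells take it up.

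At the intercalated disc, neighbouring cardiomyocytes meet end to end. Gap junctions, made of connexins, let current and small molecules pass between the cells. Desmosomes tie the intermediate filaments of both cells together, adherens junctions do the same for actin, and in the heart the components of both mix in a structure called the area composita. Inherited defects of desmosomal genes such as Pkp2, Dsp and Dsg2 cause arrhythmogenic cardiomyopathy, and loss of connexin 43 (Gja1) slows conduction. In newborn myocytes these proteins still lie along much of the cell border and gather at the cell ends only later.

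Promoter windows in the RefSeq table of the rat assembly GRCr8 reach from 250 bases before to 50 bases after a start site, and 7 of the 10 genes had one (Gja1, Gja5, Dsp, Jup, Dsg2, Dsc2 and Ctnna3; none for Gjc1, Pkp2 and Cdh2). Of the 10 genes, the 2 that fell with PE in at least 1 siRNA arm (fold above 1.5, adjusted p under 0.05) are shown here, each up to the first annotated base of the gene, 5′ to 3′ on the plus strand. Capitals mark matches to any of 7 short motifs searched on both strands. The first sequence is chr20:36302314-36302489 and the second is chr2:187290977-187291226.
Gja1: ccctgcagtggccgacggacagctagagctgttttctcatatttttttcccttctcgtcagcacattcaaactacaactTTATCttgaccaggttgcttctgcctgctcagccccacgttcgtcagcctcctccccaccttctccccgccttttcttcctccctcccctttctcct
Gja5: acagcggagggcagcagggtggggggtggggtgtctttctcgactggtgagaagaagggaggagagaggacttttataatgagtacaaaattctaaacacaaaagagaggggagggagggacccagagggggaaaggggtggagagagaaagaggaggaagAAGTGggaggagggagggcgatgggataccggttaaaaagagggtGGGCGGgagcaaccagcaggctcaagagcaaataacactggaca

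The capitals in the Gja1 stretch are a match on the minus strand to the GATA core GATAA, which 26.5% of all 33469 windows held. In Gja5 they are the NK2 homeobox core AAGTG, held by 46.2% of the windows, and the GC box GGGCGG, held by 33.1%. Further along, past the printed stretch, the Gja1 window held a match to the AP-1 site TGANTCA that began 58 bases before the start site, and no other gene of the 7 held this motif, which 7.33% of all windows had. Gja1 also held an AAGTG after its start site, and Gja5 a further GGGCGG. Of the 7 genes, 5 held the GC box (Gja5, Dsp, Jup, Dsg2 and Dsc2). The MCAT element CATTCC (14.2% of all windows), the T-box half-site GGTGTGA (3.83%) and the interferon-stimulated response element (3.92%) matched in none of the 7. No motif shares letters with another at these matches, and a match is a description of the letters only.

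The labels were checked on Slc25a26 itself. In CPM (counts scaled to a fixed library total, with the TMM factors that set libraries against each other), Slc25a26 stood at 33.2, 31.6 and 29.3 in siNeg and at 15.8, 14.9 and 14.7 in siSlc25a26, a fall by 1.08 on the log2 scale (SE 0.0798, adjusted p = 1.08e-05 by edgeR). With PE it stood at 113, 106 and 86.2 in siNeg.PE and at 102, 106 and 98.8 in the libraries labelled siSlc25a26.PE, with a log2 difference of -0.01 (SE 0.101, edgeR adjusted p = 0.969). A lower level of the targeted transcript was thus not seen in the libraries labelled siSlc25a26.PE, and every direction between the PE groups below rests on their label. The same libraries enter the PE effect in siSlc25a26 and the difference between PE effects, so these rest on that label too. Within each arm, Slc25a26 was higher in all libraries with PE than in those without. Nppa, the natriuretic peptide gene that marks hypertrophy, rose with PE in both siRNA arms, by 4.63 and 4.51 on the log2 scale (edgeR adjusted p = 2.22e-06 and 1.99e-07).

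Depth lay between 24770972 and 28709049 counts per library, and the 10 junction genes took 0.303% to 0.437% of them. siNeg replicate 3 was the highest siNeg library in 8 of the 10 genes and siNeg.PE replicate 3 the highest of its group in 7. Cardiomyocyte markers (8 of 8 in the tables) were abundant, with summed FPKM (fragments scaled by transcript length and library total) of 9670 to 10640 in siNeg, 12710 to 13160 in siNeg.PE, 9640 to 10810 in siSlc25a26 and 11770 to 12900 in siSlc25a26.PE. Fibroblast markers (8 of 8 in the tables), genes of the connective tissue cells that share such cultures, summed to 3189 to 3395, 1912 to 1947, 1925 to 2165 and 1236 to 1395 FPKM in the same order. Most of each fibroblast sum was Col1a1 (mean 2378 of 3271 FPKM in siNeg), and the 8 markers did not all move together. By edgeR on counts rather than FPKM, 4 of the 8 had higher values with PE in siNeg and 1 in siSlc25a26. With siSlc25a26, 1 had a higher edgeR value without PE and 1 under PE. Markers with values near 0 can differ in sign between counts and FPKM. Fibroblasts also express Gja1 and Cdh2. Mural cell markers (5 of 5) lay between 85.5 and 146 FPKM over all libraries and atrial markers (3 of 3) between 121 and 454. Macrophage (5 of 5, with Cd163 at 0 in every group but siNeg), mesothelial (3 of 3), endothelial (6 of 6) and Schwann markers (3 of 3) summed to at most 18.6, 15.5, 6.15 and 0.50 FPKM.

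FPKM takes gene length into account and was used to set the genes beside each other. In siNeg, Gja1 led with 331 ± 27.7 FPKM (SD, n = 3). Cdh2 (178 ± 12.3 FPKM) and Jup (173.5 FPKM) followed, and their libraries overlapped. Dsp, Pkp2, Gja5, Gjc1, Dsg2, Ctnna3 and Dsc2 came next, from 60.8 FPKM for Dsp down to 1.70 ± 0.201 FPKM for Dsc2 (SD, n = 3), and none of these neighbours overlapped. In siNeg.PE, Gja1 and Cdh2 overlapped at the top (248 and 232 FPKM), Pkp2 (94.1 FPKM) stood above Dsp (65.0 FPKM), and Gjc1, Dsg2, Ctnna3 and Gja5 formed a run of overlapping neighbours between 17.0 and 13.2 FPKM. In siSlc25a26, Gja1 led at 442 FPKM and Gja5 reached 70.4 FPKM, overlapping with Pkp2 above it and with Dsp below it. In siSlc25a26.PE the first gene was Cdh2 at 276 FPKM, above Jup and Gja1, which overlapped at 212 and 210 FPKM. Dsc2 was the lowest of the 10 in every group.

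A gene was called changed at a fold change above 1.5 with an adjusted p under 0.05 (edgeR's quasi-likelihood test over all genes, Benjamini-Hochberg). PE in the siNeg cells raised 3 of the 10 genes (Pkp2, Dsc2 and Ctnna3) and lowered 1 (Gja5), while 12.4% of the 13719 genes tested were called higher and 8.24% lower. PE in the siSlc25a26 cells raised the same 3 and lowered 2 (Gja1 and Gja5), beside 10.1% called higher and 10.4% lower among 13776 genes. Without PE, siSlc25a26 raised 4 (Gja5, Pkp2, Dsg2 and Dsc2) and lowered none, beside 8.92% and 7.20% of 13829 genes. Under PE it raised 2 (Pkp2 and Dsc2) and lowered none, beside 7.71% and 8.10% of 13671 genes. In the test of whether the PE effect differed between the siRNA arms, 1 gene (Gja5) passed, toward a lower value in siSlc25a26, beside 2.16% of 14097 genes that passed toward higher and 3.34% toward lower values. Medians over the 10 genes were 0.29, 0.18, 0.41, 0.22 and -0.16 on the log2 scale in these 5 comparisons, against 0.00, 0.00, 0.01, 0.00 and -0.05 over all genes tested. The comparisons share groups, so the same library enters more than 1 of them.

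**Figure D1:**
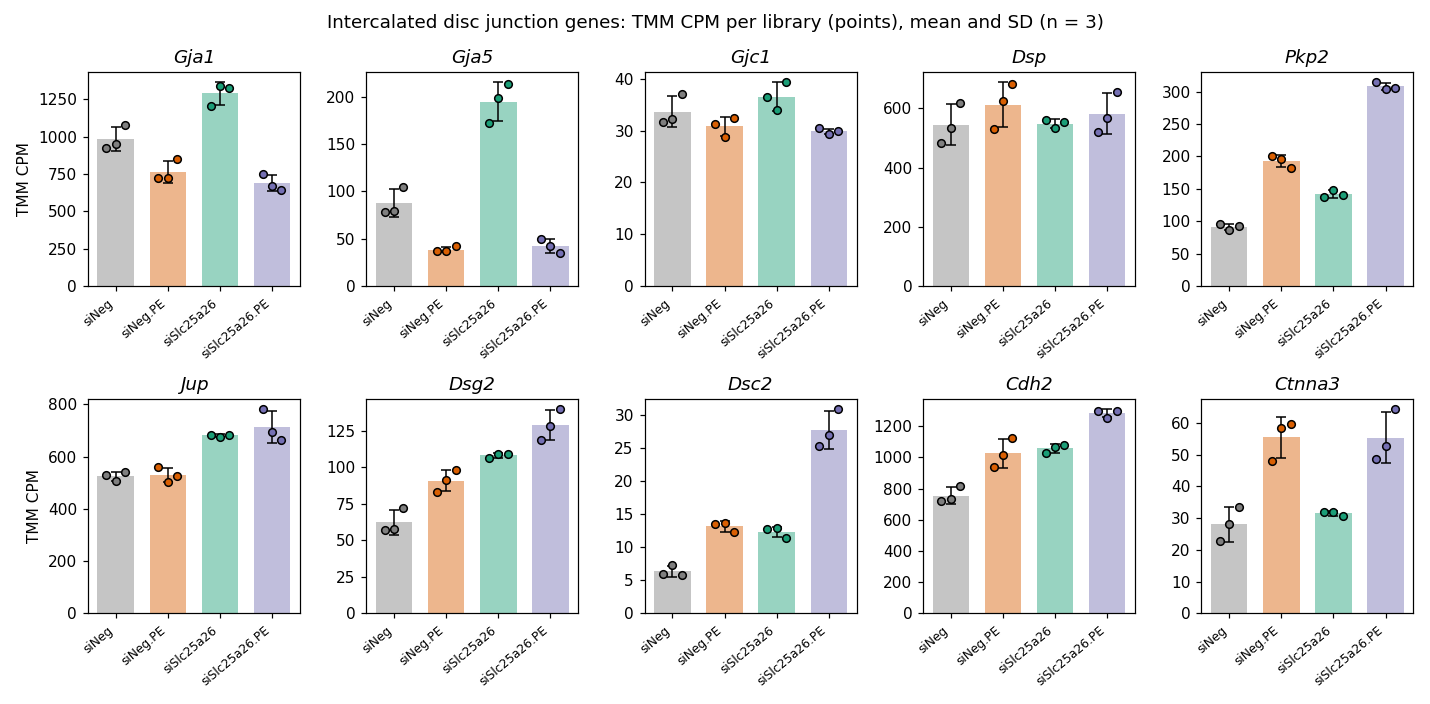
Level of each gene in TMM CPM (vertical axes, from 0, a scale of its own for each gene) in the 4 groups (horizontal axes), with points for the 3 libraries, bars for the mean and error bars for the SD. Gja5 stands between 172 and 213 CPM in siSlc25a26 and at 49.3 CPM or lower in both PE groups, and Pkp2 and Dsc2 are highest in siSlc25a26.PE.

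Among the connexins, Gja5 (connexin 40), the channel of the atria and of the conduction system, moved furthest. Its CPM was 78.2, 79.8 and 105 in siNeg, 36.6, 37.4 and 42.0 in siNeg.PE, 172, 199 and 213 in siSlc25a26, and 49.3, 42.6 and 34.5 in siSlc25a26.PE. Every library without PE lay above every library with PE, the siSlc25a26 libraries without PE lay above those of siNeg, and the PE groups overlapped. PE lowered Gja5 by 2.28-fold in siNeg (log2 -1.19, SE 0.119, edgeR adjusted p = 0.000165) and by 4.59-fold in siSlc25a26 (log2 -2.20, SE 0.125, edgeR adjusted p = 1.55e-06). Without PE, siSlc25a26 raised it by 2.19-fold (log2 1.13, SE 0.116, edgeR adjusted p = 8.8e-05). Under PE the siSlc25a26 value was 0.11 on the log2 scale (SE 0.118, edgeR adjusted p = 0.472). The PE effect was larger in siSlc25a26 by 1.03 on the log2 scale, with a difference of -1.03 (SE 0.192, edgeR adjusted p = 0.00506). The starting levels differed between the arms and the levels reached with PE overlapped.

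Gja1 (connexin 43), the main connexin of the working ventricle, had CPM of 924, 953 and 1080 in siNeg, 724, 725 and 851 in siNeg.PE, 1204, 1340 and 1329 in siSlc25a26, and 749, 673 and 644 in siSlc25a26.PE. As for Gja5, the untreated siSlc25a26 libraries were highest, PE and untreated libraries of either arm did not overlap, and the PE groups overlapped. Gja1 fell with PE in siSlc25a26, by 1.86-fold (log2 -0.90, SE 0.0677, edgeR adjusted p = 8.74e-06). In siNeg its PE value was -0.37 (SE 0.089, edgeR adjusted p = 0.00927), within the 1.5-fold limit, as was siSlc25a26 without PE at 0.36 (SE 0.0695, edgeR adjusted p = 0.00289). The PE effects differed by -0.54 (SE 0.119, edgeR adjusted p = 0.0118), a fold of 1.46 that stayed inside the limit. Leaving out siNeg replicate 3, siNeg.PE replicate 1, siSlc25a26.PE replicate 1 or siSlc25a26 replicate 1 took this difference past the limit, to between -0.59 and -0.62. Beside the falls of Gja1 stand the fibroblast marker sums above, made up mostly of Col1a1. These sums were lower in siNeg.PE than in siNeg and lower in siSlc25a26.PE than in siSlc25a26. Without PE, siSlc25a26 had lower sums than siNeg and higher Gja1. The part of fibroblast RNA in any of these Gja1 values was not tested.

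Gjc1 (connexin 45), found in nodal tissue and early myocardium, was not called in any comparison. Its CPM ran from 31.8 to 37.1 in siNeg, 28.8 to 32.5 in siNeg.PE, 33.9 to 39.4 in siSlc25a26 and 29.4 to 30.4 in siSlc25a26.PE. The value for PE in siSlc25a26 was -0.28 (SE 0.0708, edgeR adjusted p = 0.00924), and the other comparisons lay between -0.16 and 0.09.

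In FPKM, the ratio of Gja1 to Gja5 within a library was 10.9, 11.3 and 9.77 in siNeg, 18.9, 18.1 and 19.2 in siNeg.PE, 6.60, 6.43 and 5.89 in siSlc25a26, and 14.5, 15.1 and 17.6 in siSlc25a26.PE. No 2 groups overlapped, and Gja5 took 4.67% to 13.9% of the FPKM of the 3 connexins. The ratio was lowest in the untreated siSlc25a26 cells, where both connexins were highest.

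**Figure D2:**
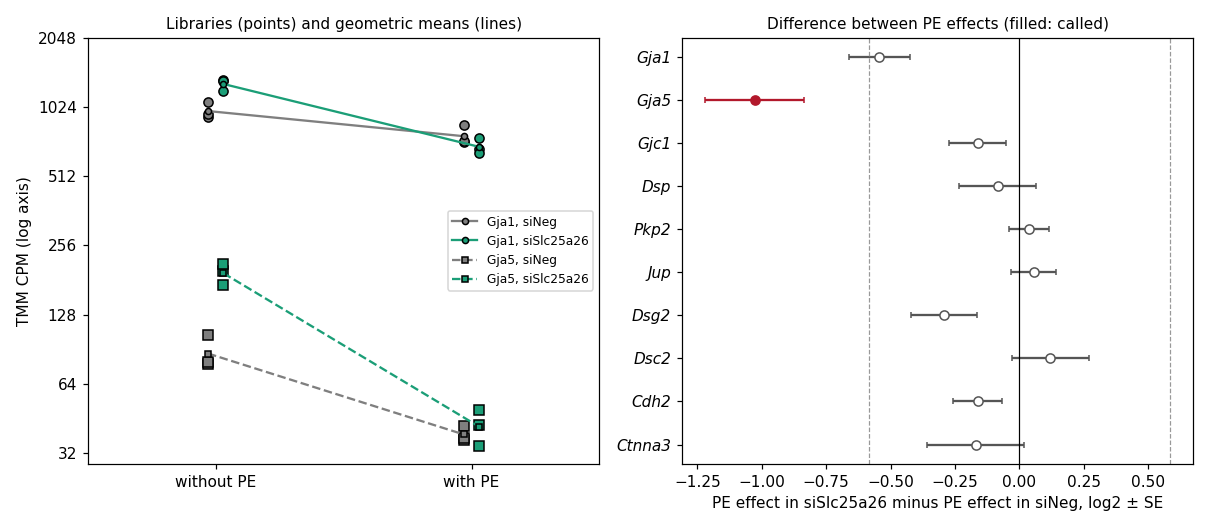
Left, TMM CPM of Gja1 (circles, solid lines) and Gja5 (squares, dashed lines) without and with PE on a log axis, with points for libraries and lines joining geometric means (small symbols), in siNeg (grey) and siSlc25a26 (green). Right, PE effect in siSlc25a26 minus PE effect in siNeg for each gene in log2 units with its SE, dashed lines at 1.5-fold; Gja5 at -1.03 is the only filled (called) point and Gja1 lies at -0.54.

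Of the desmosomal genes, Pkp2 and Dsc2 were called in all 4 comparisons of 2 groups, upward each time. Pkp2 encodes plakophilin 2, the armadillo protein that links desmosomal cadherins to desmoplakin. Its CPM was 95.1, 86.0 and 92.4 in siNeg, 200, 196 and 182 in siNeg.PE, 137, 148 and 140 in siSlc25a26, and 315, 304 and 306 in siSlc25a26.PE. The 4 groups did not overlap, and the siSlc25a26.PE libraries stood above all others. PE raised Pkp2 by 2.10-fold in siNeg (log2 1.07, SE 0.0597, edgeR adjusted p = 1.27e-05) and 2.18-fold in siSlc25a26 (log2 1.13, SE 0.0498, edgeR adjusted p = 4.03e-07), and siSlc25a26 raised it 1.53-fold without PE (log2 0.61, SE 0.0543, edgeR adjusted p = 3.54e-05) and 1.59-fold under PE (log2 0.67, SE 0.0626, edgeR adjusted p = 6.6e-05). The PE effects differed by 0.04 (SE 0.0775, edgeR adjusted p = 0.80). The call without PE was lost when siNeg replicate 2 or siSlc25a26 replicate 2 was left out (0.56 and 0.58).

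Dsc2, the desmosomal cadherin desmocollin 2, was the scarcest of the 10. Its CPM was 5.98, 7.28 and 5.87 in siNeg, 13.5, 13.7 and 12.3 in siNeg.PE, 12.7, 12.9 and 11.4 in siSlc25a26, and 25.3, 27.1 and 30.9 in siSlc25a26.PE. The untreated siSlc25a26 libraries and the siNeg.PE libraries reached about the same level, and siSlc25a26.PE stood above both. PE raised Dsc2 by 2.05-fold in siNeg (SE of the log2 value 0.115, edgeR adjusted p = 0.000271) and 2.26-fold in siSlc25a26 (log2 1.18, SE 0.0969, edgeR adjusted p = 1.47e-05). siSlc25a26 raised it 1.90-fold without PE (log2 0.93, SE 0.117, edgeR adjusted p = 0.000297) and 2.09-fold under PE (SE of the log2 value 0.103, edgeR adjusted p = 7.69e-05). The difference between the PE effects was 0.12 (SE 0.149, edgeR adjusted p = 0.65).

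Dsg2 (desmoglein 2), the partner cadherin of Dsc2, was called only for siSlc25a26 without PE. Its CPM was 56.9, 57.9 and 71.8 in siNeg, 83.2, 91.2 and 97.8 in siNeg.PE, 106, 109 and 109 in siSlc25a26, and 119, 128 and 140 in siSlc25a26.PE. No group overlapped another. The rise with siSlc25a26 without PE was 1.71-fold (log2 0.77, SE 0.0819, edgeR adjusted p = 0.000107), and under PE the value was 0.50 (SE 0.0825, edgeR adjusted p = 0.00156). PE gave 0.53 in siNeg (SE 0.103, edgeR adjusted p = 0.00363), past the fold limit without siNeg replicate 3 (0.64) or siNeg.PE replicate 1 (0.60), and 0.26 in siSlc25a26 (SE 0.066, edgeR adjusted p = 0.00929). The difference between these PE effects was -0.29 (SE 0.128, edgeR adjusted p = 0.165). On FPKM instead of counts, Dsg2 in siSlc25a26 differed little with PE, by 0.08, with limma adjusted p = 0.355 on log2(FPKM + 1). The ratio of Dsg2 to Dsc2 in FPKM was 5.56 to 8.50 in siNeg libraries, and the siSlc25a26.PE libraries lay below all of them at 3.29 to 3.43.

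Jup and Dsp were not called in any comparison. Jup (plakoglobin), which binds both desmosomal and classical cadherins, had CPM of 506 to 540 in siNeg, 505 to 560 in siNeg.PE, 676 to 684 in siSlc25a26 and 665 to 781 in siSlc25a26.PE. All siSlc25a26 libraries lay above all siNeg libraries, with values of 0.35 without PE (SE 0.0454, edgeR adjusted p = 0.000363) and 0.42 under PE (SE 0.0771, edgeR adjusted p = 0.00264). PE gave 0.00 in siNeg and 0.08 in siSlc25a26 (edgeR adjusted p = 0.996 and 0.313), and the sign of both turned with the scaling. Dsp (desmoplakin), which anchors desmin filaments, ran from 484 to 683 CPM over all siNeg arm libraries and from 521 to 657 CPM over the siSlc25a26 arm, and its values lay between -0.09 and 0.16 with edgeR adjusted p from 0.276 to 0.887. The spread within siNeg alone (484, 534 and 619 CPM) was wider than these differences. Each siNeg.PE library (532, 625 and 683 CPM) stood above the siNeg library of the same number. With the replicate number as a block, Dsp for PE in siNeg passed the adjusted p but not the fold limit (edgeR adjusted p = 0.00608). The FPKM ratio of Pkp2 to Dsp was 0.678 to 0.899 in the siNeg libraries and 1.23 to 1.73 with PE. In the siSlc25a26 libraries it was 1.10 to 1.26, and 2.13 to 2.77 with PE.

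Cdh2 (N-cadherin), the classical cadherin of the heart, had CPM of 718, 732 and 817 in siNeg, 938, 1018 and 1123 in siNeg.PE, 1028, 1069 and 1077 in siSlc25a26, and 1298, 1256 and 1299 in siSlc25a26.PE. The siNeg libraries lay below all others and the siSlc25a26.PE libraries above. All 4 comparisons gave higher values that passed the adjusted p but not the fold limit, namely 0.43 (SE 0.0836, edgeR adjusted p = 0.00374) and 0.29 (SE 0.0458, edgeR adjusted p = 0.000718) for PE in siNeg and siSlc25a26. For siSlc25a26 they were 0.46 without PE (SE 0.0578, edgeR adjusted p = 0.00029) and 0.32 under PE (SE 0.0718, edgeR adjusted p = 0.00775). Over the alternatives, the value of Cdh2 for PE in siSlc25a26 went down to 0.12. Its highest adjusted p there was 0.0486 (limma on log2(FPKM + 0.1)). Fibroblast marker sums were lower in each group that had the higher Cdh2, and their part was not tested.

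Ctnna3 (αT-catenin), the α-catenin of the area composita, which also binds plakophilin 2, responded to PE. Its CPM was 22.6, 28.0 and 33.5 in siNeg, 48.1, 58.4 and 59.7 in siNeg.PE, 31.8, 32.0 and 30.6 in siSlc25a26, and 48.8, 52.8 and 64.3 in siSlc25a26.PE. PE libraries lay above untreated libraries in both arms, and the siRNA groups overlapped at either condition. PE raised Ctnna3 by 1.96-fold in siNeg (log2 0.97, SE 0.143, edgeR adjusted p = 0.00104) and 1.77-fold in siSlc25a26 (log2 0.82, SE 0.101, edgeR adjusted p = 0.000168). siSlc25a26 gave 0.14 without PE (SE 0.122, edgeR adjusted p = 0.373) and -0.01 under PE (SE 0.118, edgeR adjusted p = 0.954). Cardiomyocyte marker sums were also higher with PE in both arms, which was not tested as a part of the result. Tnnt2 made up a large part of these sums (mean 4293 of 10110 FPKM in siNeg). In each arm, 7 of the 8 markers had higher edgeR values with PE. Pln was lower, at 1514 and 1395 FPKM without and with PE in siNeg, and 1619 and 999.8 FPKM in siSlc25a26.

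**Figure D3:**
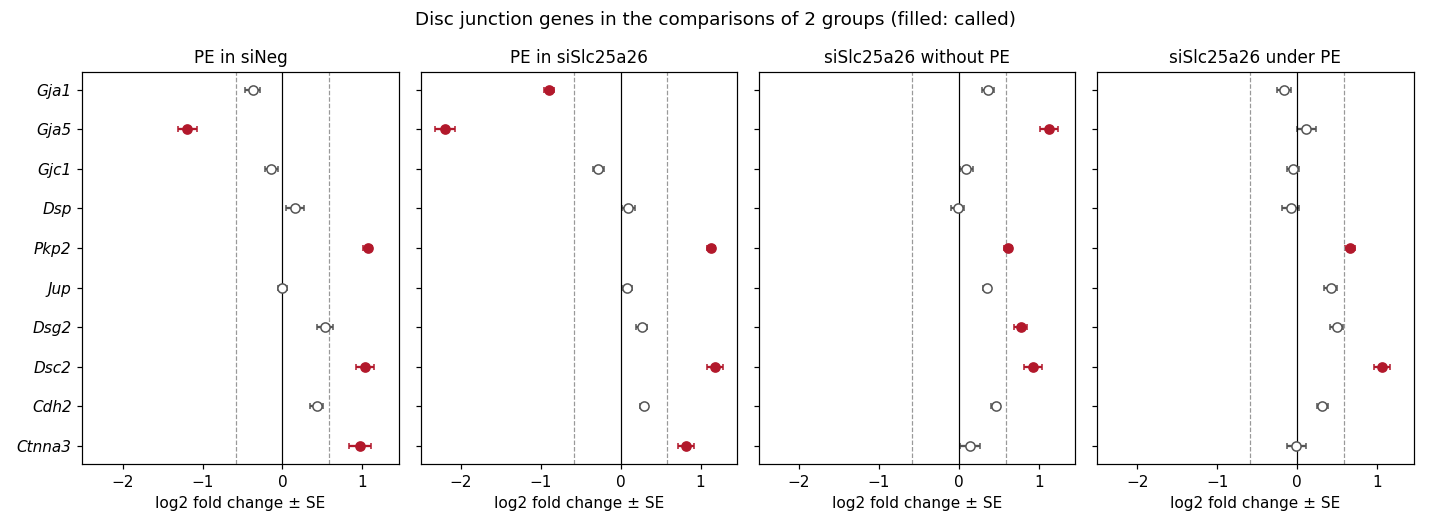
log2 fold change with its SE (horizontal axes) of the 10 genes (rows) in the 4 comparisons of 2 groups, with filled red points for called genes and dashed lines at 1.5-fold. Pkp2 and Dsc2 are filled in all panels, Gja5 is filled on the left in both PE panels (-1.19 and -2.20) and on the right for siSlc25a26 without PE (1.13).

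For a single gene, an exact two-sided permutation test of 3 libraries against 3 cannot go below p = 0.1, and each comparison without overlap in CPM reached that floor. Over the 12 libraries, the closest pair among the 10 genes was Dsg2 and Cdh2, with a root mean square difference of 0.144 between their log2 CPM after each gene's own mean was taken away. Jup and Cdh2 (0.195), Gjc1 and Dsp (0.205) and Pkp2 and Dsc2 (0.217) followed. The measure is not scaled by a gene's own spread, so genes that vary little lie close to each other whatever their pattern, as with Gjc1 and Dsp, whose SDs over the 12 libraries were 0.142 and 0.149 in log2 CPM, against 0.671 and 0.789 for Pkp2 and Dsc2. The most distant pair was Gja5 and Dsc2 (1.46). Among 14097 genes, the profile closest to Pkp2 was that of Cryab (0.0995), the small heat shock protein αB-crystallin, then Tox3 and Gpx3. Closest to Ctnna3 was Tbx20 (0.0643), a cardiac transcription factor. Closest to Gja5 was Slc24a3 (0.254), beside an SD of Gja5 itself of 0.997, the largest of the 10 genes.

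The other genes of these junctions were taken from 5 lists of 80 symbols, of which 76 were in the tables and 55 (54 under PE) passed the filter on low counts. PE raised 11 and lowered 5 in siNeg, beside 12.4% of all genes tested called higher and 8.24% lower. It raised 15 and lowered 8 in siSlc25a26, beside 10.1% and 10.4%. siSlc25a26 raised 7 and lowered 4 without PE, beside 8.92% and 7.20%. Under PE it raised 8 and lowered 2, beside 7.71% and 8.10%. The PE effects differed for 8, toward higher values in 6, beside 2.16% of all genes toward higher and 3.34% toward lower values. Medians of the tested related genes were 0.03, 0.27, -0.01, 0.20 and 0.17, in the order of the comparisons above. Over all genes tested they were 0.00, 0.00, 0.01, 0.00 and -0.05.

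Of the other connexins and pannexins, 7 were tested, and those called with PE were all lower, 3 in siNeg and 4 in siSlc25a26. The shares of all genes called lower were 8.24% and 10.4%. Gjd3 fell from 3.79 to 0.863 FPKM with PE in siNeg (log2 -2.09, SE 0.246, edgeR adjusted p = 0.000349) and from 16.3 to 1.67 FPKM in siSlc25a26 (log2 -3.12, SE 0.151, edgeR adjusted p = 6.64e-07). Like Gja5, it was higher in siSlc25a26 without PE (log2 2.05, SE 0.104, edgeR adjusted p = 8.51e-07), it was also higher under PE (log2 1.02, SE 0.284, edgeR adjusted p = 0.019), and its PE effects differed by -1.04 (SE 0.307, edgeR adjusted p = 0.0464). Gja4, an endothelial connexin, fell by 0.94 with siSlc25a26 without PE (SE 0.209, edgeR adjusted p = 0.00631).

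Among the catenins and adaptors, Ctnna1 (αE-catenin) differed from Ctnna3. Its FPKM was 241, 245 and 259 in siNeg, 248, 254 and 244 in siNeg.PE, 222, 231 and 231 in siSlc25a26, and 392, 388 and 414 in siSlc25a26.PE, which stood apart from the other 9 libraries. PE raised Ctnna1 in siSlc25a26 (log2 0.98, SE 0.0476, edgeR adjusted p = 6.64e-07) and gave 0.04 in siNeg (edgeR adjusted p = 0.508), with a difference of 0.92 (SE 0.0681, edgeR adjusted p = 6.75e-05). Tln1, the actin linker talin, had a PE effect higher by 0.88 in siSlc25a26 (SE 0.0953, edgeR adjusted p = 0.000278). Ctnnb1 (β-catenin) and Ctnnd1 (p120 catenin) were not called, with values from -0.15 to 0.22. Sorbs2, an adaptor of actin and the disc, rose with PE from 110 to 284 FPKM in siNeg (log2 1.40, SE 0.0824, edgeR adjusted p = 1.67e-05) and from 146 to 484 FPKM in siSlc25a26 (log2 1.89, SE 0.0743, edgeR adjusted p = 2.28e-07). Under PE, siSlc25a26 raised Sorbs2 by 0.83 (edgeR adjusted p = 0.000175). Vcl (vinculin) fell by 0.78 with siSlc25a26 without PE (edgeR adjusted p = 9.74e-06).

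Among the other classical cadherins, Cdh3 (P-cadherin) fell with PE from 22.4 to 5.69 FPKM in siNeg (log2 -1.94, SE 0.0895, edgeR adjusted p = 5.63e-06) and from 10.3 to 4.41 FPKM in siSlc25a26 (log2 -1.05, SE 0.0917, edgeR adjusted p = 2.12e-05), and it fell by 1.18 with siSlc25a26 without PE. The PE effect on Cdh3 differed by 0.86 (edgeR adjusted p = 0.00143). Cdh6, with 46 to 67 counts per siNeg library and 104 to 126 with PE, rose by 1.18 with PE in siNeg (edgeR adjusted p = 0.001) and by 0.89 with siSlc25a26 without PE (edgeR adjusted p = 0.00364), with PE effects that differed by -0.93 (edgeR adjusted p = 0.0178). Cdh4, at 4 to 24 counts in every library, was called in 3 comparisons, with its lowest counts (6, 4 and 5) in siSlc25a26.

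Of the scaffolds, membrane partners and channels, 8 of 22 rose with PE in each arm, beside 12.4% and 10.1% of all genes tested. Xirp2, a filament-binding protein of the disc, rose most, from 1.61, 1.92 and 2.91 FPKM in siNeg to 8.97, 17.6 and 13.7 in siNeg.PE (log2 2.69, SE 0.279, edgeR adjusted p = 0.000198). In the siSlc25a26 arm it went from 4.08, 3.55 and 2.84 to 16.2, 34.3 and 55.4 FPKM (log2 3.51, SE 0.386, edgeR adjusted p = 8.67e-05). Its calls for siSlc25a26 without PE (0.65) and under PE (1.47) came from groups that overlapped in CPM (edgeR adjusted p = 0.0274 and 0.0152). Nrap, at the ends of the myofibrils, rose with PE in both arms, by 0.94 in siNeg (edgeR adjusted p = 2.76e-05) and 1.32 in siSlc25a26 (edgeR adjusted p = 1.3e-07). Lmo7 also rose in both, by 0.87 (edgeR adjusted p = 5.06e-05) and 1.33 (edgeR adjusted p = 2.89e-06). Tjp1 (ZO-1), the scaffold that binds connexin 43, rose with PE in siSlc25a26 (log2 0.88, SE 0.0881, edgeR adjusted p = 4.98e-05) and was at 0.56 in siNeg, inside the fold limit. Ank3 rose with siSlc25a26 without PE by 0.82 (edgeR adjusted p = 7.26e-05). In siSlc25a26.PE against siNeg.PE, Xirp1 was higher by 0.99 (edgeR adjusted p = 4.25e-06). Tmem65 and Ank2 were lower there, by 0.68 each (edgeR adjusted p = 0.00175 and 0.00196). PE itself raised Tmem65 in siNeg, by 0.72 (edgeR adjusted p = 0.00249), and gave 0.27 for Ank2 (edgeR adjusted p = 0.0962).

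**Figure D4:**
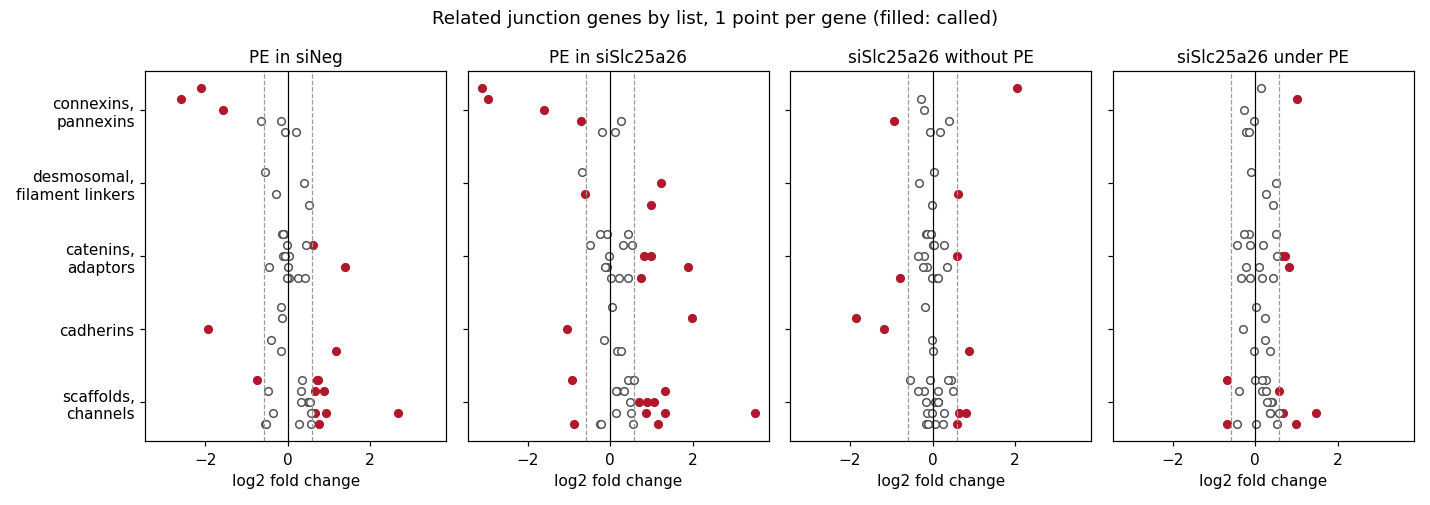
log2 fold change (horizontal axes) of each tested related gene, 1 point per gene, by list (rows) in the 4 comparisons of 2 groups, with filled red points for called genes and dashed lines at 1.5-fold. In both PE panels the called connexins and pannexins lie left of 0 and most called scaffolds lie right of it, with Xirp2 furthest (2.69 and 3.51).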

How the data were processed

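RNA of NRVMs was sequenced by BGI in 12 libraries, and groups and replicate numbers were taken from the labels. The authors deposited expected counts per gene, which need not be whole (20.8% to 21.9% of values per library were not), and FPKM per gene in another table. The submitters' processing notes name HISAT, Bowtie2 and the build Rnor 6.0. Versions and strandedness are not given in the sources used here. The design planned for plain counts, so the expected counts were rounded. The paper that names these data describes another siRNA and other times, and the labels were followed.

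Counts were tested in R 4.3.3 with edgeR 4.0.16 (TMM, filterByExpr, quasi-likelihood test, Benjamini-Hochberg over all genes) on the libraries of each comparison, and on all 12 for the difference between PE effects. Standard errors came from the F statistic. Calls needed a fold above 1.5 and an adjusted p under 0.05, thresholds from the study's methods. Group levels are means ± SD of 3 libraries. The procedure was tested on simulated data. Library sizes were 24770972 to 28709049 counts. Replicates differed by more than counting noise, with chi-square per gene from 5.53 to 21.7, so the spread between replicates set the precision.

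The 10 genes, the lists and the motifs were chosen with earlier results of these data known. The rule for names took all 10 genes, Slc25a26 and Nppa as checks, per comparison up to 4 called related genes with the largest rise and up to 4 with the largest fall, the partners Ctnnb1, Ctnna1, Ctnnd1 and Tjp1, and the nearest profiles. Some genes the rule takes are not reported here. Alternatives were DESeq2 1.42.0, limma 3.58.1 (voom, and log2(FPKM + 1) or log2(FPKM + 0.1)), DESeq2's size factors, no filter, 10 counts in every library, a replicate block, 1 fit of all libraries, no fold limit, and each library left out. Gjb6, Gjd2, Gje1 and Pkp3 of the lists were not analysed here.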

Additional observations from a re-analysis of the deposited data

Results flagged for a closer look

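The effect of PE on Gja5 differed between the siRNA arms: PE in siSlc25a26 minus PE in siNeg was -1.03 on the log2 scale (SE 0.192, edgeR adjusted p = 0.00506 over 14097 genes), from a fall by 1.19 in siNeg and by 2.20 in siSlc25a26. Over the alternatives the adjusted p ranged from 4.6e-06 (DESeq2) to 0.0161 (without siSlc25a26.PE replicate 2). All 6 libraries with PE were below the 3 untreated libraries of their own arm. Groups of 3 were not tested for single libraries that stand out. Slc25a26 itself, at 42.5 FPKM in siNeg.PE and 39.3 FPKM in the libraries labelled siSlc25a26.PE, gave an edgeR adjusted p of 0.969 between them.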

How the results depend on the processing

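With 3 libraries per group and a limit at 1.5-fold, genes near that fold decide the counts. With no fold limit, 7, 8, 7, 5 and 2 of the 10 genes passed (PE in siNeg, PE in siSlc25a26, siSlc25a26 without PE, under PE, and the difference between PE effects), and 35, 41, 25, 35 and 22 related genes. Many of all genes tested passed too. In the same order, these were 3456 higher and 3329 lower of 13719, 3634 and 3585 of 13776, and 3223 and 2998 of 13829. For the last 2 they were 2744 and 2744 of 13671, and 773 and 808 of 14097. On log2(FPKM + 1) the related genes called numbered 10 for PE in siNeg, 7 and 6 for siSlc25a26 without and under PE, and 4 for the difference; on both FPKM scales the difference was called for 2 of the 10 genes, Gja1 and Gja5. Leaving out single libraries gave 1 to 2 of the 10 genes, and 5 to 11 related genes, for the difference. FPKM fits moved the median of all genes for PE in siSlc25a26 to -0.125 and -0.171 and the share called higher from 49.2% to 27.4% and 27.1%, and for the difference to -0.109 and -0.143 and from 39.3% to 23.4% and 22.1%. On log2(FPKM + 1), the calls over all genes became 857 higher and 733 lower (PE in siNeg), 564 and 1497 (PE in siSlc25a26), 832 and 452 (siSlc25a26 without PE), 623 and 756 (under PE), and 164 and 538 (difference), from 1708 and 1130, 1389 and 1436, 1233 and 996, 1054 and 1108, and 305 and 471 on counts. The cause of these shifts was not tested.

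Signs turned only for values near 0. Jup, PE in siNeg, gave 0.0067 with DESeq2 and 0.0067 with its size factors, 0.0033 with 10 counts in every library, 0.012 with all libraries in 1 fit and -0.0317 to 0.0431 without single libraries. On the FPKM scales (pseudocounts 1 and 0.1), Dsp and Jup, PE in siSlc25a26, gave -0.10 and -0.11, and -0.11 and -0.11. Dsp without PE gave 0.0566 and 0.0576 there and 0.0091 in 1 fit, Pkp2 in the difference -0.0653 and -0.0709, and Jup in the difference -0.0514 and -0.0516. Without single libraries, Dsp ran from -0.0070 to 0.17 for PE in siSlc25a26, -0.0969 to 0.0584 without PE and -0.187 to 0.0103 in the difference, Gja5 under PE from -0.00945 to 0.25, Ctnna3 under PE from -0.126 to 0.0730 and Jup in the difference from -0.0150 to 0.104.

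Pairing of the libraries by replicate number was uneven over the 4 comparisons of 2 groups. For PE in siNeg, correlations of same-numbered deviations were 0.145, 0.00943 and 0.217, and 5 of 6 libraries correlated best with their own number. For siSlc25a26 under PE the correlations were 0.209, 0.0252 and 0.169, with 4 of 6 libraries. They ran from -0.073 to -0.00536 for PE in siSlc25a26 (0 of 6) and from -0.0913 to 0.0562 for siSlc25a26 without PE (2 of 6). With the number as a block, 4, 5, 4, 2 and 1 of the 10 genes and 17, 24, 10, 9 and 7 related genes were called.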
